A study of Mus musculus with 8 samples.

Results

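The TOB and BTG genes encode the antiproliferative (APRO) protein family. Mouse Tob1, Tob2, Btg1, Btg2 and Btg3 were chosen by name, after nascent RNA and occupancy values of these libraries were known, so all values here are a description and none is tested. Of the 5 genes, 4 were among the 11364 genes listed with a nascent RNA level, and Btg3 was not analysed here at the RNA level. The 5 genes were the closest transcription start site (TSS) of 15 of the 5551 consensus sites occupied by wild type or mutant KLF1. All 15 sites lay at the other 4 genes.

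APRO proteins share an N-terminal domain that binds the catalytic deadenylase subunits CNOT7 and CNOT8 of the CCR4-NOT complex, which shortens the poly(A) tails of mRNAs. TOB1 and TOB2 also carry C-terminal motifs that bind cytoplasmic poly(A)-binding protein, while BTG1 and BTG2 bind the arginine methyltransferase PRMT1. Forced expression of family members slows the cell cycle in many cell types. KLF1 is the zinc finger factor that activates many genes of terminal erythroid differentiation, a program that ends with exit from the cell cycle.

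The study used K1 cells, an immortalized Klf1 null line from mouse fetal liver, and K1-E339K-ER cells. The latter carry, by retrovirus, KLF1 with the E339K substitution in its second zinc finger, fused to the hormone-binding part of the estrogen receptor so that 4-hydroxytamoxifen (4-OHT) brings it into the nucleus. Both lines lack endogenous KLF1. Nascent RNA was labeled with 4-thiouridine (4sU; 500 µM for 30 min by the labels) in 3 libraries of K1 cells, 2 with 200 nM 4-OHT and 1 with ethanol, and in 3 libraries of K1-E339K-ER cells, each of another clone with 200 nM 4-OHT. KLF1-E339K-ER occupancy came from 1 ChIP library and 1 input library of 1 clone after 3 h of 200 nM 4-OHT, made from pooled replicates with an antibody to the estrogen receptor. The wild type concentrations come from KLF1-ER, the same fusion without the substitution, in K1-ER cells of earlier work by the same group, and those libraries were not analysed here one by one.

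Every RNA level below is the authors' own mean over libraries, and every wild type concentration is their pooled value. Each mutant concentration comes from the 1 ChIP library of pooled replicates. The replicate spread and the depth are therefore unknown, and no difference could be set against an error. The erythroid identity of the line was checked on mean log2 CPM (read counts scaled to library size). All 10 erythroid markers had a level, from 3.79 for Hba-a1 to 9.79 for Gata1, with Tal1 at 9.48 and Epor at 8.31. The myeloid genes Mpo and Elane were at 1.84 and 0.77, the megakaryocyte genes Itga2b and Gp9 at 5.30 and 1.79, and the 3 lymphoid markers were not analysed here.

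The sequences around the site midpoints are shown first, because they hold, or lack, the DNA words that the study's motif analysis tied to each protein. In the words used here, 4 have a purine at the fourth letter (GGGAGGGG, GGGAGTGG, GGGGGGGG and GGGGGTGG; the mutant's motif) and 4 have a pyrimidine there (GGGCGGGG, GGGCGTGG, GGGTGGGG and GGGTGTGG; the wild type motif). In the paper's in vitro assays, neither protein bound strongly with A at this letter, and their affinities were about equal. With G there the mutant bound more strongly than the wild type, and with C or T less strongly. Both strands were searched, words may overlap, and since the motifs were derived on these same sites a match is a description only. All windows are in mm9 (NCBIM37), written 5′ to 3′ on the strand named, with purine and pyrimidine words or their overlapping runs in capitals, and a word of the other strand appears as its reverse complement. The first 3 are from sites where the mutant concentration was over 2-fold above the wild type concentration. Each of them holds a purine word, so they do not stand for all 8 such sites. Within 50 bp of the midpoint, 4 of the 8 held a purine word and 3 held neither kind.
Tob1, 273 bp upstream, chr11:94072445-94072545, minus strand: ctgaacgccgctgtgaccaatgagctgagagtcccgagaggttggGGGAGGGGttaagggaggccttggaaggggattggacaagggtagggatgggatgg
Tob1, 1261 bp upstream, chr11:94071457-94071557, minus strand: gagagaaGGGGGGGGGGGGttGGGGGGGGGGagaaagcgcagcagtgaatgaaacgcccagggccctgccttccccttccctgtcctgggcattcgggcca
Btg2, 16418 bp downstream, chr1:135959264-135959364, minus strand: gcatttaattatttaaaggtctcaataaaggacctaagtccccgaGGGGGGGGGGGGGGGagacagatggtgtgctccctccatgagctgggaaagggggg
The next 3 are from sites where the wild type concentration was over 2-fold above that of the mutant. The last of them holds neither kind of word, which was so within 50 bp of the midpoint at 4 of the 6 such sites.
Tob2, 45.5 bp upstream, chr15:81688757-81688851, plus strand: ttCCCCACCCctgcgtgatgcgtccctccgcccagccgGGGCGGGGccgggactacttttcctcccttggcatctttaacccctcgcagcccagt
Btg2, 845 bp downstream, chr1:135974837-135974937, minus strand: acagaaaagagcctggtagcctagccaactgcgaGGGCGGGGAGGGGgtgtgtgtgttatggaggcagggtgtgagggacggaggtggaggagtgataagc
Btg2, 5887 bp downstream, chr1:135969795-135969895, plus strand: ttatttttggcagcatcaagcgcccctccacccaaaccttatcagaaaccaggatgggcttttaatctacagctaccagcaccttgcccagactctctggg

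Occupancy is given as DiffBind's log2 concentration, the log2 of the mean normalized read count in a site, for KLF1-ER and for KLF1-E339K-ER. Positions are those of the site midpoint relative to the TSS in the site table, counted along the gene, so that upstream is before the TSS. A site is called mutant higher or wild type higher when the concentrations differ by more than 1, that is 2-fold. Of the 15 sites, 8 were mutant higher and 6 wild type higher, against a background of 61.5% and 28.6% of all 5551 sites. The shares at the TOB and BTG genes were 53.3% and 40.0%, and 1 site lay within 2-fold. Without a replicate error, and with 1 library on the mutant side, these calls state which value was larger and no more. The genes differed in their sites: all 3 Tob1 sites and the single Btg1 site were mutant higher, Tob2 had 2 mutant higher and 1 wild type higher site, and Btg2 had 2 mutant higher and 5 wild type higher sites.

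**Figure D1:**
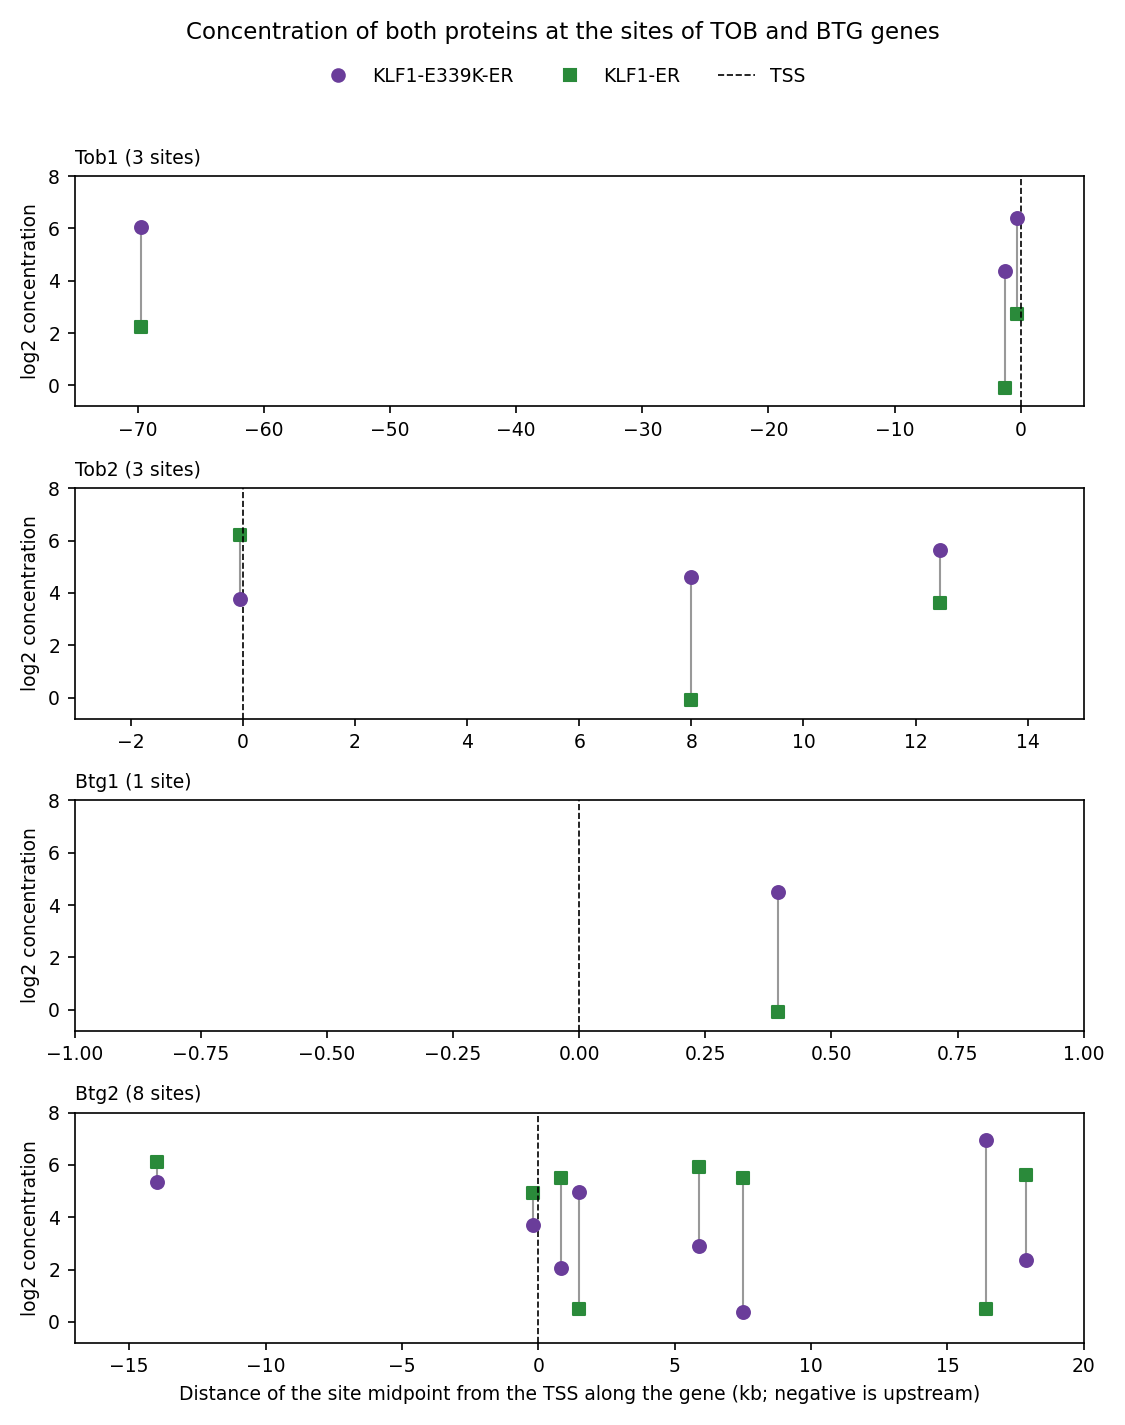
Log2 concentration of KLF1-E339K-ER (circles) and KLF1-ER (squares) at each of the 15 sites, against the distance of the site midpoint from the TSS in kb, with 1 panel per gene and its own distance axis. Circles lie above squares at every Tob1 site and at the Btg1 site, and below them at 6 of the 8 Btg2 sites, 1 of these within 2-fold.

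Tob1, which acts with SMAD proteins as well as with the deadenylases, had mutant higher sites alone. The site nearest its promoter, chr11:94072131-94072859, lay 273 bp upstream of the TSS in sequence annotated as intergenic. Its KLF1-ER concentration was 2.72 and its KLF1-E339K-ER concentration 6.39, the latter at percentile 90.2 of all sites. At 729 bp it was also the widest of the 15 sites, the others being at least 307 bp and the median of all sites 330 bp. It was rich in G and C (70.8%), and the purine word GGGAGGGG in the printed window was centered 1.5 bp from the midpoint. The same site held 6 purine and 5 pyrimidine words over its whole width. Of these, 4 purine and 3 pyrimidine words lay together 84.5 to 104.5 bp from the midpoint, in a repeat where words of both kinds share letters.

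The second Tob1 site, chr11:94071323-94071691, was 1261 bp upstream. KLF1-ER was at -0.09 there, the lowest wild type value in the table, and KLF1-E339K-ER at 4.38. That lowest value was shared by 1424 sites (25.7%), 3 of them at the genes described here, so at such sites the mutant concentration is set against the bottom of the wild type scale. The printed window has runs of 12 and 10 G, which together hold 8 overlapping purine words, and no pyrimidine word. The third Tob1 site, chr11:94002848-94003211, lay 69.7 kb upstream, within the annotated gene B230206L02Rik. It had a KLF1-ER concentration of 2.23, a KLF1-E339K-ER concentration of 6.05, 1 pyrimidine word and no purine word within 50 bp of the midpoint.

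Tob2, the closest relative of Tob1, had its sites split by position. The site at its promoter, chr15:81688648-81688955, was centered 45.5 bp upstream of the TSS and had the highest KLF1-ER concentration of the 15 sites, 6.20 (percentile 93.8), with KLF1-E339K-ER at 3.75 (percentile 24.8). GENCODE places its midpoint in an intron of a second, overlapping locus that also bears the name Tob2. The printed window holds 2 pyrimidine words and no purine word, and the GGGCGGGG among them was centered 2.5 bp from the midpoint. The other Tob2 sites were mutant higher. The site at chr15:81680595-81680931, in the 3′ UTR 7993 bp downstream of the TSS, had KLF1-ER at the lowest value of -0.09 and KLF1-E339K-ER at 4.61. The site at chr15:81676174-81676480, in intergenic sequence 12.4 kb downstream of the TSS, had a KLF1-ER concentration of 3.61, a KLF1-E339K-ER concentration of 5.65 and neither kind of word within its bounds.

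Btg1 had a single site, chr10:96079867-96080191, centered in its first coding exon 394 bp downstream of the TSS. KLF1-ER was at the lowest value of -0.09 and KLF1-E339K-ER at 4.48. Its G and C content of 75.1% was at percentile 99.1 of all sites, and it had 12.3 CpG per 100 bp. No purine or pyrimidine word lay within 50 bp of the midpoint. The 4 purine words of the whole site were nearer its edges, between 87.5 and 148.5 bp away.

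Btg2, a well known target of p53, had 8 sites over 32.4 kb. Only 18 of the 3670 genes that were the closest TSS of a site (0.49%) had 8 or more, with a median of 1 and a maximum of 32. The median concentration over the 8 Btg2 sites was 5.48 for KLF1-ER and 3.31 for KLF1-E339K-ER, whereas the medians over all sites of the table were 2.82 and 4.86. The order was therefore the opposite of that in the whole table.

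Around the Btg2 promoter, wild type higher and mutant higher sites lay side by side. The site at chr1:135975765-135976085, 193 bp upstream of the TSS, had KLF1-ER at 4.93 and KLF1-E339K-ER at 3.70, and was the only one of the 14 called sites whose concentrations differed by less than 4-fold. In the intron 845 bp downstream, the site at chr1:135974726-135975048 had KLF1-ER at 5.48 and KLF1-E339K-ER at 2.05. Its printed window joins a pyrimidine word and a purine word on overlapping letters, GGGCGGGG and GGGAGGGG. Only 206 bp further, the site at chr1:135973977-135974519 in the coding sequence, 1484 bp downstream, went the other way, with KLF1-ER at 0.50 and KLF1-E339K-ER at 4.96. It held neither kind of word over its whole 543 bp. Its wild type value was at percentile 30.3, near the lowest value of the wild type scale.

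Beyond the 3′ end of Btg2, 3 sites were wild type higher and 1 mutant higher. KLF1-ER was at 5.93 and KLF1-E339K-ER at 2.91 at chr1:135969672-135970018, 5887 bp downstream of the TSS. The values were 5.48 and 0.39 at chr1:135968061-135968371, 7516 bp downstream, the lowest KLF1-E339K-ER concentration of the 15 sites (percentile 5.15). Neither site held a purine or pyrimidine word. Both held words bound by GATA factors (GATA after an A or T and before an A or G, on both strands). One of these was centered 9.5 bp from the midpoint of the first site, while the second site had none within 50 bp. A GATA word anywhere in the site was found in 7 of the 15 sites, against 44.4% of all sites and 39.9% of all wild type higher sites.

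The site at chr1:135959160-135959468, 16418 bp downstream, had KLF1-ER at 0.50, again near the lowest wild type value. KLF1-E339K-ER was at 6.96 there (percentile 96.2), the highest mutant concentration of the 15 sites. An uninterrupted run of 15 G lies at the midpoint of this site and gives 8 overlapping purine words. Across a gap of 1062 bp, the site at chr1:135957619-135958097, 17.9 kb downstream, had KLF1-ER at 5.61, KLF1-E339K-ER at 2.38 and neither kind of word. At the far upstream end, chr1:135989437-135989983, 14.0 kb before the TSS, KLF1-ER was at 6.11 and KLF1-E339K-ER at 5.35, the only site within 2-fold. These were at percentiles 92.9 and 67.7 of all sites. The site held 5 pyrimidine and 2 purine words.

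**Figure D2:**
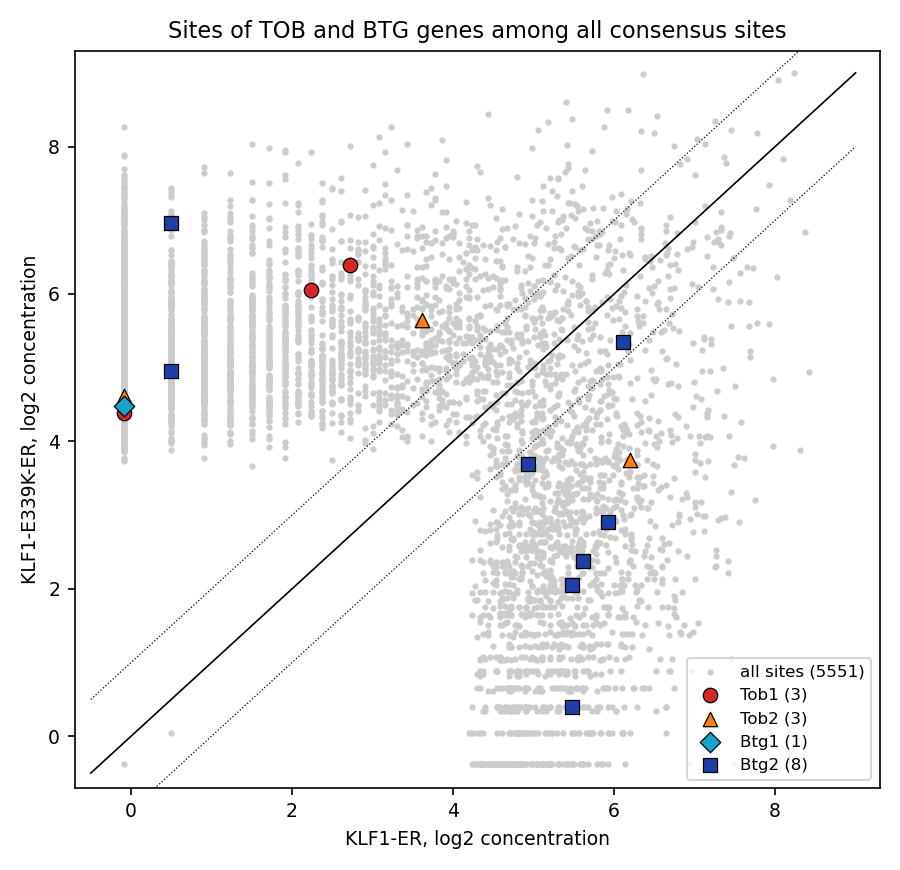
Log2 concentration of KLF1-ER against that of KLF1-E339K-ER at all 5551 consensus sites (gray) and at the sites of Tob1, Tob2, Btg1 and Btg2 (colored). The solid line marks equal concentrations and the dotted lines a 2-fold difference, and the column of points at the left is the lowest wild type value, -0.09, where 3 of the 15 sites lie.

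Having sites called in both directions was not rare. Of the 3 TOB and BTG genes with 2 or more sites, Tob2 and Btg2 had both directions, compared with 388 of 1103 genes with 2 or more sites in the whole table (35.2%). Of the 15 sites, 10 lay within 10 kb of the TSS and 5 within 1 kb, against 67.6% and 39.5% of all sites. The G and C content of the 15 sites had a median of 59.1% and ranged from 52.6 to 75.1%, with a median of 59.1% over all sites. No site had Btg3 as its closest TSS. The nearest one to the annotated Btg3 start was 1316 kb away.

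Within 50 bp of the midpoint, 5 of the 15 sites held a purine word and 5 a pyrimidine word, close to the 35.7% and 35.4% of all sites. Among the 8 mutant higher sites, 4 had a purine word, 2 a pyrimidine word and 3 neither, and in all mutant higher sites of the table the shares were 45.9%, 22.9% and 45.0%. Among the 6 wild type higher sites, 1 had a purine word, 2 a pyrimidine word and 4 neither, where the whole table had 16.0%, 61.0% and 33.4%. With only the 6 middle letters of each word, a setting added after seeing the data, 4 of these 6 sites had a purine and 5 a pyrimidine core, against 54.1% and 84.6% of all wild type higher sites. All 4 wild type higher sites with neither word belonged to Btg2. Runs of 10 or more G, singled out after their values were seen, lay in 2 of the 8 mutant higher sites and none of the 6 wild type higher sites, compared with 9.58% and 0.252% of such sites in the table. A GATA word lay within 50 bp of the midpoint in 4 of the 15 sites, against 20.6% of all sites.

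**Figure D3:**
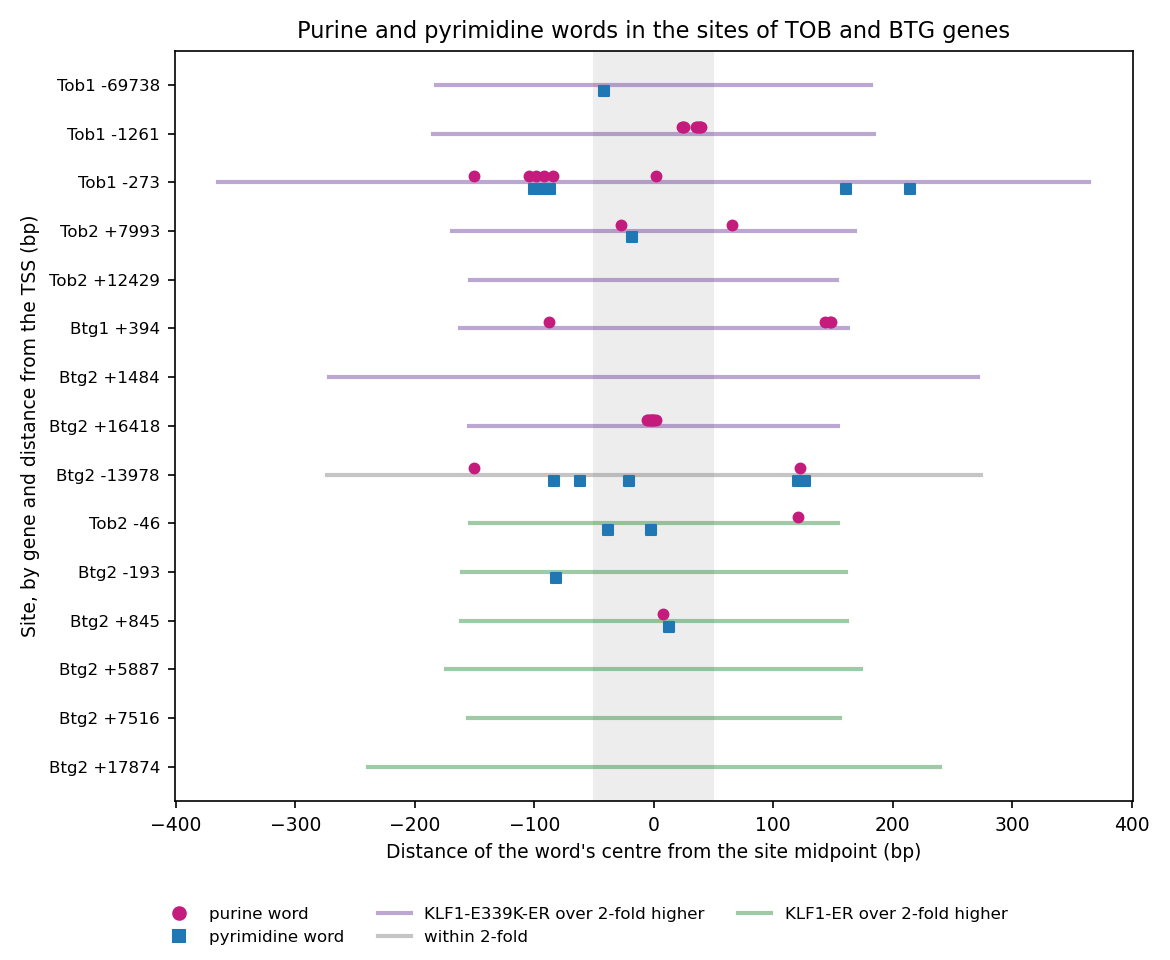
Position of purine words (circles) and pyrimidine words (squares) in the 15 sites, as the distance of the word's center from the site midpoint in bp, with the sites as horizontal lines colored by call and the 50 bp window shaded. Purine words cluster at the midpoint of the Btg2 site 16418 bp downstream, while 4 of the 5 wild type higher Btg2 sites have no word in the shaded window.

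The same words were counted in the promoters of the family, taken as 250 bp before to 50 bp after each RefSeq start (GRCm38.p6). Tob1 had 2 pyrimidine words, Tob2 had 2 pyrimidine words and 1 purine word, Btg2 had 1 pyrimidine word, and Btg1 had none. Of both Btg3 starts, 1 promoter had 1 word of each kind and the other had none. Among all 32851 RefSeq promoters, 22.6% held a purine word and 29.7% a pyrimidine word.

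Nascent RNA of 4 family members was listed, given as the authors' mean log2 CPM over all libraries of their fit. This mean is identical in both gene tables, it includes K1-ER libraries of earlier work, and it cannot be split by cell line. In bulk RNA, fewer expressing cells and less RNA per cell cannot be told apart. The mean was 7.36 for Btg2 (Entrez 12227), 7.14 for Tob2 (57259), 5.70 for Tob1 (22057) and 4.69 for Btg1 (12226), with a median of 5.27 over all genes. To compare genes with each other, this level was divided by the deposited gene length, from 4039 bp for Tob1 to 10057 bp for Tob2. On this scale, log2 CPM per kb, Btg2 was at 5.26 (percentile 97.5 of all genes), Tob2 at 3.81 (91.3), Tob1 at 3.69 (90.4) and Btg1 at 2.16 (73.5), while the median of all genes was 0.82. Btg2 was thus 8.58 times the level of Btg1 per kb of deposited length, 2.73 times that of Tob2 and 2.97 times that of Tob1. Tob2 was 1.09 times the level of Tob1. The ratios and percentiles depend on the length used. Per kb of exon the level of Btg2 was 11.6 times that of Btg1, 1.69 times that of Tob2 and 2.63 times that of Tob1, and Tob2 was 1.55 times Tob1. Without a spread over libraries none of these neighbors can be separated from the next by a test. On that scale Btg1 was below the middle of all genes, at percentile 29.5, and Btg2 was at 92.1, though the order of the 4 genes was the same.

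**Figure D4:**
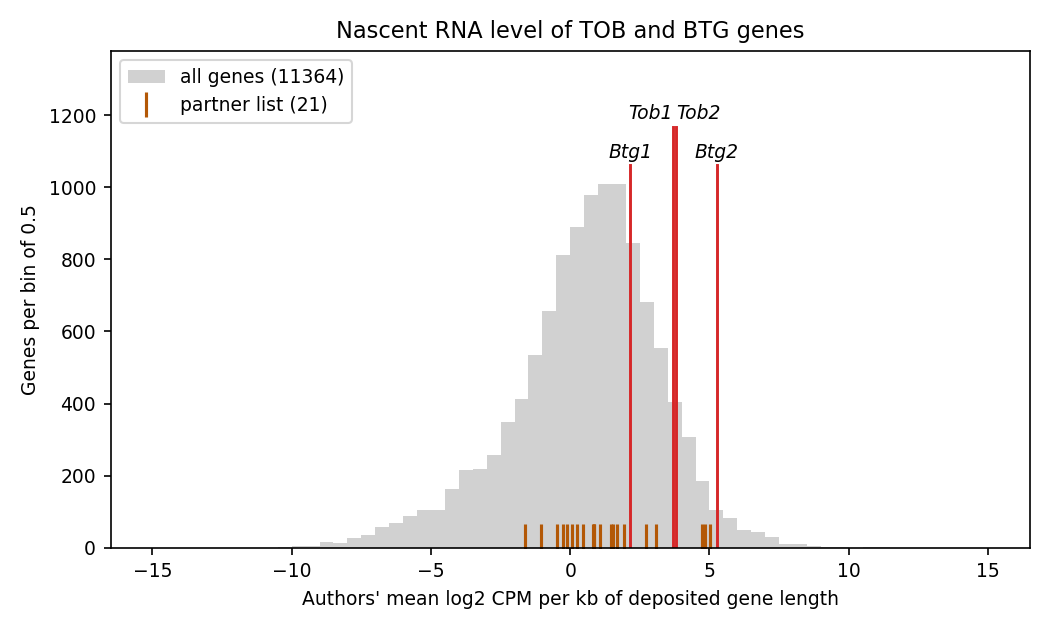
Number of genes (of 11364) by the authors' mean log2 CPM per kb of deposited gene length, in bins of 0.5, with Btg1, Tob1, Tob2 and Btg2 as red lines and the 21 listed partner genes as ticks. Btg2 lies in the upper tail at 5.26, Tob1 and Tob2 lie at 3.69 and 3.81 on this scale, and Btg1 is nearest the bulk of genes.

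All 4 listed family members were the closest TSS of at least 1 site, which held for 26.6% of all listed genes. Partners and effectors of the family were taken as a list of 25 genes, of which 21 had a level. The list also held Btg4, a further family member, which was not among those with a level. On the deadenylation side, 15 of 16 genes were listed, among them 11 CNOT genes, Pan2, Pabpc1, Pabpc4 and Tnks1bp1, with a median of 6.31 mean log2 CPM and a range from 2.88 for Tnks1bp1 to 9.18 for Cnot1, the scaffold of the complex. Their median per kb was 1.07, from -1.62 for Tnks1bp1 to 5.03 for Pabpc1. Cnot7 and Cnot8, which encode the deadenylases that APRO proteins bind, were at 1.66 and 0.85 log2 CPM per kb of deposited length, each below the 4 family members. Per kb of exon they were at 3.66 and 3.31, above Btg1 at 2.37 and below the other 3. With no division by length, Cnot7 was at 6.21, above Tob1 and Btg1 and below Tob2 and Btg2. Cnot8 was then at 4.71, close to Btg1 at 4.69 and below the other 3. Neither Cnot7 nor Cnot8 was the closest TSS of a site.

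The partner genes had 12 sites at 8 genes, 8 of them mutant higher (66.7%), 3 wild type higher (25%) and 1 within 2-fold, close to the shares of 61.5% and 28.6% over all sites. Cnot2, a structural subunit of CCR4-NOT, had a site 0.692 kb upstream with KLF1-ER at 2.08 and KLF1-E339K-ER at 5.87. The genes of the poly(A)-binding proteins differed: Pabpc4 had a wild type higher site 0.175 kb upstream, at 5.37 for KLF1-ER and 0.66 for KLF1-E339K-ER, whereas all 3 Pabpc1 sites, 39.2 to 48.9 kb upstream, were mutant higher. Tnks1bp1 had a mutant higher site 0.026 kb upstream (-0.09 and 4.99) and a wild type higher site 3.03 kb downstream (5.83 and 1.96). Prmt1, the methyltransferase partner of BTG1 and BTG2, had a site 0.70 kb downstream with 6.36 for KLF1-ER and 5.70 for KLF1-E339K-ER, within 2-fold. Rb1, the retinoblastoma gene, had a wild type higher site 0.39 kb upstream (5.57 and 2.16). The SMAD genes, whose products pair with TOB1, had mutant higher sites alone, 2 at Smad3 and 1 at Smad4, while Smad1, Smad2 and Smad5 had none. The Smad3 sites were distant, 60.4 kb downstream and 27.8 kb upstream, and the Smad4 site lay 0.16 kb upstream.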

How the data were processed

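The series holds 6 libraries of 4sU-labeled RNA (K1 and K1-E339K-ER cells), 1 ChIP library and its input. The authors aligned RNA reads to mm9 with TopHat2 (2.0.10 in the submitters' processing notes) followed by TMAP and dropped poorly mapped reads. ChIP reads were aligned with TMAP alone and kept only when unique and not duplicated. The authors called peaks with MACS2 and GEM, and deposited log2 values: the mean log2 CPM of voom per gene, pooled over libraries, and DiffBind's log2 concentration per site for the wild type and the mutant. The gene and site tables also hold the authors' own comparisons (log2 fold changes, test statistics, p-values and FDR), which were not used, so no difference in nascent RNA between cell lines is given. Depth per library is unknown, and no interval or test for a level or a concentration could be computed. Versions of limma and DiffBind are not given in the sources used here.

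Members and gene lists were chosen with earlier results of these data known. All 5 members, the 25 genes of the partner list and the markers were named by rule, and genes were matched by Entrez ID, since 779 genes have different symbols in the 2 gene tables. A site belonged to the gene that the site table gives as its closest TSS. The level per kb is the mean log2 CPM minus log2 of the deposited length in kb. Words on either strand were counted within 50 bp of the site midpoint in mm9, and site annotation came from GENCODE M1. The word search and the calls were tested on simulated data, with words planted in sequence of A and T alone and differences far from the 2-fold limit. This checked the code only, and not how often words arise by chance in real sites. Python 3.11.15, pandas 2.3.3, numpy 2.4.6 and matplotlib 3.10.9 were used. Identity between the proteins was not analysed here. Alternatives were other lengths, folds, distances, windows and words.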

Additional observations from a re-analysis of the deposited data

How the results depend on the processing

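Of 34 recomputed values, 19 stayed within the tolerance used, a factor of 1.5 for counts (15 sites against 10 within 10 kb, for example) and the 95% Wilson interval for percentiles, and 15 moved. Such an interval does not measure the error of a gene's level, and every recomputed percentile fell outside it. The percentile of the level, 90.4 for Tob1, 91.3 for Tob2, 73.5 for Btg1 and 97.5 for Btg2 per kb of deposited length, became 70.3, 82.1, 29.5 and 92.1 per kb of exon, which was known for 10112 genes (89%), and 57.6, 83.6, 40.6 and 87.0 with no division by length. The 8 mutant higher sites fell to 5 when only sites within 10 kb of the table's TSS or of an annotated TSS were kept, and the 6 wild type higher sites to 5. With words counted only after a G or C, mutant higher sites with a pyrimidine word went from 2 to 0 and wild type higher ones from 2 to 1. Wild type higher sites with a purine word went from 1 to 2 over the whole site. With the 6 middle letters of each word, an alternative chosen after seeing the data, wild type higher sites with a purine word became 4 and with a pyrimidine word 5 of 6, against 54.1% and 84.6% of all wild type higher sites. The causes were not tested. No replicate could be left out, since RNA levels and wild type concentrations are pooled and the mutant concentrations come from 1 library. No paired analysis was possible because no value comes from a test and no replicate libraries have values of their own.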
